A study of Mus musculus with 14 samples.

Results

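Dcx, Neurod1, Neurod2, Sox11, Sox4, Igfbpl1, Eomes, Hopx and Nes are 9 genes used to follow the birth of granule cells in the dentate gyrus, and their messages are described here in wildtype tissue and in tissue of a line deficient in amyloid precursor protein (APP). They were chosen by symbol, 9 of the 55291 gene symbols of the count tables, and all 9 passed the filter on low counts. The tissue was the dentate gyrus of mouse organotypic slice cultures of the entorhinal cortex and hippocampus, cut at postnatal day 4 to 5 and kept for at least 18 days. Each library held polyadenylated RNA of 1 dentate gyrus that had been excised with a scalpel. 6 libraries came from wildtype C57BL/6J cultures (APP+/+), and 8 came from cultures of the gene-targeted APP-deficient line (APP-/-), called APPko. Which cultures came from the same pup is not stated in the labels, which name the libraries as biological replicates. Each p-value therefore rests on how far these 14 libraries differ among themselves.

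Granule cells are born throughout postnatal life from radial glia-like stem cells, which pass through dividing intermediate progenitors and neuroblasts to immature and then mature neurons. Hopx, a homeodomain-only protein, and Nes, the intermediate filament nestin, mark the stem cells. Eomes (Tbr2), a T-box factor, marks the intermediate progenitors. The SoxC factors Sox4 and Sox11, the basic helix-loop-helix factors Neurod1 and Neurod2, the secreted binding-protein relative Igfbpl1 and the microtubule-associated protein doublecortin (Dcx) mark later steps, from neuroblast to immature neuron. Several of these genes are used outside the lineage too: Hopx in astrocytes, Nes in vessel wall cells and Neurod2 in mature excitatory neurons.

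Depth was 16686909 to 31031126 counts per library. App itself was lower in APPko, 214.3 ± 17.9 CPM (counts scaled to library size, SD, n = 8) against 809.5 ± 131 in wildtype (n = 6), and the groups did not overlap (log2 fold change -1.92, edgeR adjusted p = 9.2e-09). The granule cell genes Prox1 and Calb1 were present in every library, at 105.7 to 207.4 and 134.2 to 656.8 CPM. Wildtype libraries 2 and 3 stood apart from the others in their scaling factors, 0.852 and 0.847 against 0.976 or more in the other 12. Each column header ends in f or m, without an explanation: 3 f and 3 m in wildtype, 7 f and 1 m in APPko.

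The genes lie on 9 chromosomes of GRCm38, and 2 of them, Neurod2 and Dcx, had a negative correlation across the 14 libraries that passed the test in the full set and in none of the alternatives given beside it. Neurod2 (ENSMUSG00000038255.6) lies at chr11:98325415-98329648 on the minus strand and Dcx (ENSMUSG00000031285.14) at chrX:143855842-143933311 on the minus strand. Their promoter windows, shown because the pair had opposite patterns there, run from 250 bases before to 50 after the RefSeq start (GRCm38.p6), at chr11:98329596-98329895 and chrX:143933170-143933469. Capitals mark the E-box CANNTG, the motif bound by basic helix-loop-helix factors, which reads as CANNTG on both strands.
Neurod2 promoter: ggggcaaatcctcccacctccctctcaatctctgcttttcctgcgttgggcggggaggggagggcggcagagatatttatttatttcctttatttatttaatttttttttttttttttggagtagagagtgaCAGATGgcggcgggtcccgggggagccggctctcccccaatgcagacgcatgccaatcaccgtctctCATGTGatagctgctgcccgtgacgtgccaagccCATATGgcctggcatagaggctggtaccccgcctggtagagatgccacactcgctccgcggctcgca
Dcx promoter: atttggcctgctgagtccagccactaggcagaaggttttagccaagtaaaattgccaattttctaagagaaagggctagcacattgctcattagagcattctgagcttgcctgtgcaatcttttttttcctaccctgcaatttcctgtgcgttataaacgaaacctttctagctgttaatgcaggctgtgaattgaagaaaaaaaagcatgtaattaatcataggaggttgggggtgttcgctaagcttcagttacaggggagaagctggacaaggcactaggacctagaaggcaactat
The Neurod2 window held 3 E-boxes, and the windows of both RefSeq starts of Dcx, of which 1 is shown, held none. Of all 32851 windows of this length 72.3% held at least 1 and 17.6% held 3 or more. RefSeq windows were matched for 8 of the 9 genes. Those of Neurod1 and Sox4 held 1 E-box each and that of Sox11 held 2, those of Eomes and Nes held none, and the 2 starts of Hopx held 1 and 2. These matches describe letters in a window and say nothing of binding.

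Per kilobase of exon, the order of wildtype means did not follow the stages of the lineage. The stem cell genes Hopx and Nes had higher means than Dcx and Igfbpl1. Neurod1 stood first at 20.1 ± 2.51 CPM per kb (SD, n = 6), above Sox4 in 6 of 6 libraries. Sox4 (13.9 ± 1.60), Sox11 (11.2 ± 1.96), Neurod2 (10.9 ± 7.44) and Hopx (10.4 ± 4.06) followed with overlapping spreads, each above the next in 5, 4 and 3 of 6 libraries. Nes had 4.58 ± 1.46 and Dcx 3.19 ± 0.516 CPM per kb, and these 2 exchanged places in 3 of 6 libraries. Igfbpl1 (0.679 ± 0.448) stood above Eomes (0.363 ± 0.322) in 6 of 6. Against all tested genes, Neurod1 lay above 88.2% and Eomes above 17.9% in wildtype. In APPko, Neurod2 (17.9 ± 6.55 CPM per kb, n = 8) and Neurod1 (17.7 ± 3.80) shared the top, with Neurod2 ahead in 4 of 8 libraries, and Hopx (14.3 ± 2.53) stood above Sox4 in 6 of 8.

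No member passed edgeR's test of APPko against wildtype at an adjusted p of 0.05: 0 of 9 were called higher and 0 of 9 lower. Over all 22150 tested genes, 0.944% were called higher and 1.41% lower, so a count of 0 among 9 genes lies near the background share. The 9 fitted log2 fold changes had a median of -0.05, with 4 positive and 5 negative, beside a median of -0.013 over all tested genes. At an unadjusted p under 0.05 there were 4 of 9 (Dcx, Igfbpl1, Hopx and Neurod2) against 4527 of 22150 genes, and DESeq2 called 1, Igfbpl1 (adjusted p = 0.029), and limma voom 0. In every member the ranges of the groups overlapped. In bulk tissue, fewer cells of a stage and less message per cell cannot be told apart.

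**Figure D1:**
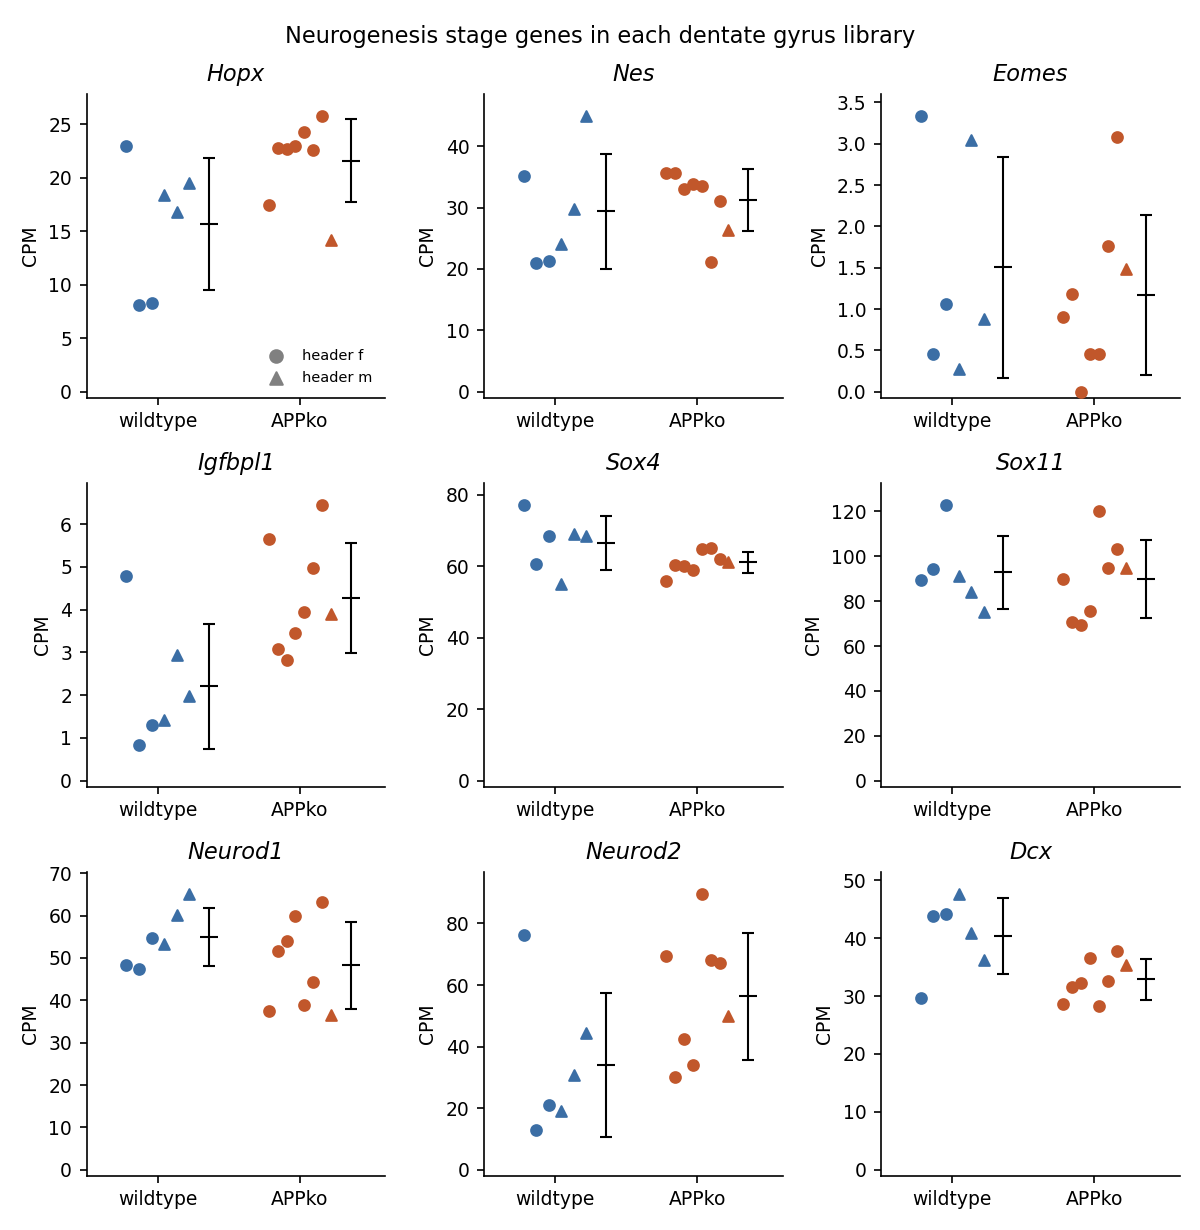
CPM of the 9 genes in each library, wildtype (blue, n = 6) and APPko (orange, n = 8), ordered from stem cell to immature neuron genes. Circles and triangles are headers ending in f and m, and bars are the mean and SD. The wildtype spread of Neurod2 and Igfbpl1, 5.85-fold and 5.79-fold between the highest and the lowest library, is the widest after Eomes.

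Among the stem cell genes, Hopx (chr5:77086988-77115121, minus strand) had a lowest, median and highest value of 8.08, 17.6 and 23.0 CPM in wildtype and of 14.2, 22.7 and 25.8 in APPko. Wildtype libraries 2 and 3, at 8.08 and 8.33 CPM, lay below every APPko library, and the other 4 wildtype libraries lay inside the APPko range. The means were 15.7 ± 6.15 and 21.6 ± 3.83 CPM (log2 fold change 0.46, SE 0.21, adjusted p = 0.22), and without those 2 libraries the fitted value was 0.16 (adjusted p = 0.72). An antisense transcript, Hopxos, shares 412 bases or 27.2% of the Hopx exons, and without strand its reads and those of Hopx cannot be told apart. Hopxos stood at 0.757 ± 0.160 and 1.08 ± 0.481 CPM.

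Nes (chr3:87971078-87980451, plus strand) ran from 21.0 through a median of 26.9 to 45.0 CPM in wildtype, and from 21.2 through 33.4 to 35.6 in APPko. The highest and the lowest library were both wildtype, libraries 6 and 2. The fitted log2 fold change was 0.09 (SE 0.17, 95% interval -0.26 to 0.44, adjusted p = 0.81), and it was -0.09 without wildtype libraries 2 and 3. Of the 9 genes, Nes varied most with the slope of a library's values over GC content (r = 0.55 over 14 libraries, genotype means removed), and with that trend removed its fold change was -0.08. Its part in the Nes values was not otherwise tested. Summed over the markers of endothelial cells and pericytes, which also carry nestin, wildtype libraries had 107 to 198 CPM and APPko libraries 83.5 to 151. Gene by gene the list leaned the other way, with 8 of 10 fitted values positive and a median log2 fold change of 0.55, although by edgeR 0 of 10 passed in either direction (4 at an unadjusted p under 0.05, and 1 called higher by DESeq2). The part of vessel cells in the Nes values was not tested.

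Eomes, the intermediate progenitor gene (chr9:118478212-118486132, plus strand), was the scarcest of the set. Wildtype libraries had 8 to 62 counts and APPko libraries 0 to 85. In CPM the lowest, median and highest were 0.270, 0.970 and 3.34 in wildtype and 0, 1.04 and 3.08 in APPko. APPko library 3 held 0 counts, which allows up to 3 counts or 0.13 CPM if counts are independent (counting error only). The limit is higher if mates were counted singly. Wildtype libraries 1 and 5 and APPko library 7 each exceeded 3 CPM. The coefficient of variation in wildtype was 88.6%, and the fitted difference lay well within the spread between libraries (log2 fold change -0.33, SE 0.62, 95% interval -1.64 to 0.97, adjusted p = 0.82). The antisense gene Gm33460, itself below the filter, shares 118 bases or 2.84% of the Eomes exons.

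Igfbpl1 (chr4:45809468-45826923, minus strand), which marks neuroblasts and early immature neurons, had the largest fitted difference of the 9. Its lowest, median and highest values were 0.827, 1.70 and 4.79 CPM in wildtype and 2.83, 3.92 and 6.46 CPM in APPko. 4 of 6 wildtype libraries lay below every APPko library, whereas wildtype library 1 lay above 5 of the 8. The means were 2.21 ± 1.46 and 4.28 ± 1.29 CPM, a fitted 1.96-fold difference (log2 0.97, SE 0.32, 95% interval 0.31 to 1.64) that missed the threshold (edgeR adjusted p = 0.096). Without wildtype library 1 the adjusted p was 0.018 and the log2 value 1.37, and without wildtype libraries 2 and 3 they were 0.39 and 0.64. Counts were 18 to 89 in wildtype and 63 to 178 in APPko.

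The SoxC factors switch on neuronal genes in neuroblasts. Sox4 (chr13:28948919-28953713, minus strand, a single exon), with the lowest coefficient of variation of the 9 genes in both groups (11.5% in wildtype and 5.03% in APPko), was the steadiest between libraries. It had 55.0, 68.3 and 77.2 CPM as lowest, median and highest in wildtype and 55.8, 60.7 and 65.2 in APPko. 4 wildtype libraries lay above every APPko library and 1 lay below them all (log2 fold change -0.12, 95% interval -0.30 to 0.06, adjusted p = 0.45). Sox11 (chr12:27334264-27342574, minus strand, a single exon) had 75.3, 90.3 and 123.4 CPM in wildtype and 69.5, 92.3 and 120.1 in APPko, nearly the same span. Its fitted value was -0.05 (95% interval -0.33 to 0.23, adjusted p = 0.88), with a sign that changed when counts were scaled by totals alone (0.06) or wildtype libraries 2 and 3 were left out (0.08).

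Neurod1 (chr2:79452521-79456751, minus strand), which drives neuroblasts towards the granule neuron fate, ran from 47.5 through 54.0 to 65.2 CPM in wildtype and from 36.6 through 48.1 to 63.1 in APPko. 4 of 8 APPko libraries lay below every wildtype library, and the other 4 lay among them (log2 fold change -0.18, 95% interval -0.46 to 0.09, adjusted p = 0.46). The gene Cerkl on the same strand shares 201 bases or 7.37% of the Neurod1 exons, at 4.25 ± 1.74 and 3.18 ± 0.748 CPM.

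Neurod2, which acts later in neuronal differentiation, was the most variable of the abundant members. Its lowest, median and highest values were 13.0, 25.9 and 76.3 CPM in wildtype and 30.1, 58.5 and 89.7 CPM in APPko. Wildtype libraries 2, 3 and 4 lay below every APPko library, while wildtype library 1 at 76.3 CPM was exceeded by APPko library 5 alone. The fitted log2 fold change was 0.73 (SE 0.34, 95% interval 0.00 to 1.45, adjusted p = 0.24). It was 1.15 without wildtype library 1 (adjusted p = 0.034) and 0.40 without wildtype libraries 2 and 3 (adjusted p = 0.73).

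Dcx, the standard marker of immature neurons, ran from 29.6 through 42.3 to 47.7 CPM in wildtype and from 28.3 through 32.4 to 37.7 in APPko. 4 wildtype libraries lay above every APPko library, and wildtype library 1 lay above APPko libraries 1 and 5 alone. The means of 40.4 ± 6.53 and 32.9 ± 3.48 CPM gave a fitted 1.23-fold lower value (log2 -0.30, SE 0.11, 95% interval -0.53 to -0.07) with an adjusted p of 0.14. Over 28 alternative fits the value stayed negative, between -0.36 and -0.18, and never passed the threshold (adjusted p 0.051 to 0.48).

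**Figure D2:**
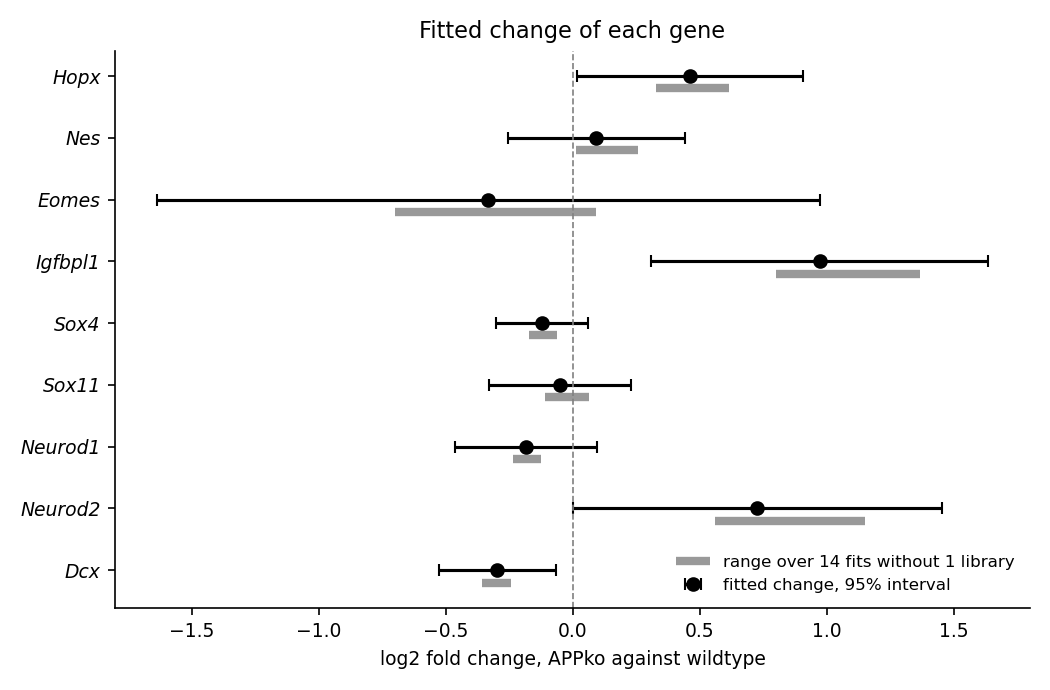
Fitted log2 fold change of each gene, APPko against wildtype. Points and thin bars are edgeR's value and its 95% interval, and thick grey bars span the 14 fits that each left out 1 library. Intervals of Dcx, Igfbpl1, Hopx and Neurod2 do not include 0, and none of the 4 passed after adjustment.

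Ratios within a library need no scaling between libraries, and 3 were tested by an exact two-sided permutation of genotype over the libraries (3003 arrangements), with adjustment over the 3. The log2 ratio of Igfbpl1 to Dcx, an early over a later gene of the neuroblast path, was -4.40 ± 1.11 in wildtype (n = 6) and -2.98 ± 0.435 in APPko (n = 8). 5 of 6 wildtype libraries, between -5.69 and -3.79, lay below every APPko library, and wildtype library 1 at -2.62 lay among the APPko values of -3.50 to -2.33. The ratio was higher in APPko by 1.42 (exact permutation p = 0.0063, adjusted p = 0.019). It joins 2 members that each had an unadjusted edgeR p under 0.05, in opposite directions. The members were chosen with earlier results of these data known, and the adjustment over the 3 ratios does not cover that choice. Of 17345 genes compared in the same way, 12.8% had a p as small or smaller for their own ratio to Dcx, 2202 of them higher and 25 lower in APPko. Without wildtype libraries 2 and 3 the difference was 0.93 (adjusted p = 0.12), and over the libraries with header f it was 1.50 (adjusted p = 0.15). A library's trend over GC content need not cancel in a ratio, as Igfbpl1 has 55.7% GC and Dcx 40.6%. With that trend removed the difference was 1.07 (exact permutation, adjusted p = 0.042). With same-numbered libraries taken as pairs it was 1.38 (sign-flip permutation p = 0.031, adjusted p = 0.094). With 64 arrangements that p is the smallest possible. Beside the p of the other 2 ratios it could not pass after adjustment, so this miss does not show a weaker difference.

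Neither of the other 2 ratios passed. The log2 ratio of Dcx to Calb1, an immature over a mature granule cell gene, was -3.35 ± 0.610 in wildtype and -3.01 ± 0.414 in APPko, a difference of 0.34 (exact permutation p = 0.23, adjusted p = 0.35). Wildtype library 1, at -2.18, was the highest of all, and without it the difference was 0.58 (adjusted p = 0.027). Over the libraries with header f it was 0.02 (adjusted p = 0.96). The log2 ratio of Eomes to Dcx was -5.24 ± 1.60 and -5.58 ± 2.16 (exact permutation p = 0.78, adjusted p = 0.78), and without APPko library 3, which had no Eomes count, the difference was 0.36 in place of -0.35. Calb1 alone had 453.9 ± 184 and 276.8 ± 89.6 CPM (adjusted p = 0.14), and Prox1 157.9 ± 40.5 and 151.5 ± 33.4 (adjusted p = 0.89).

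**Figure D3:**
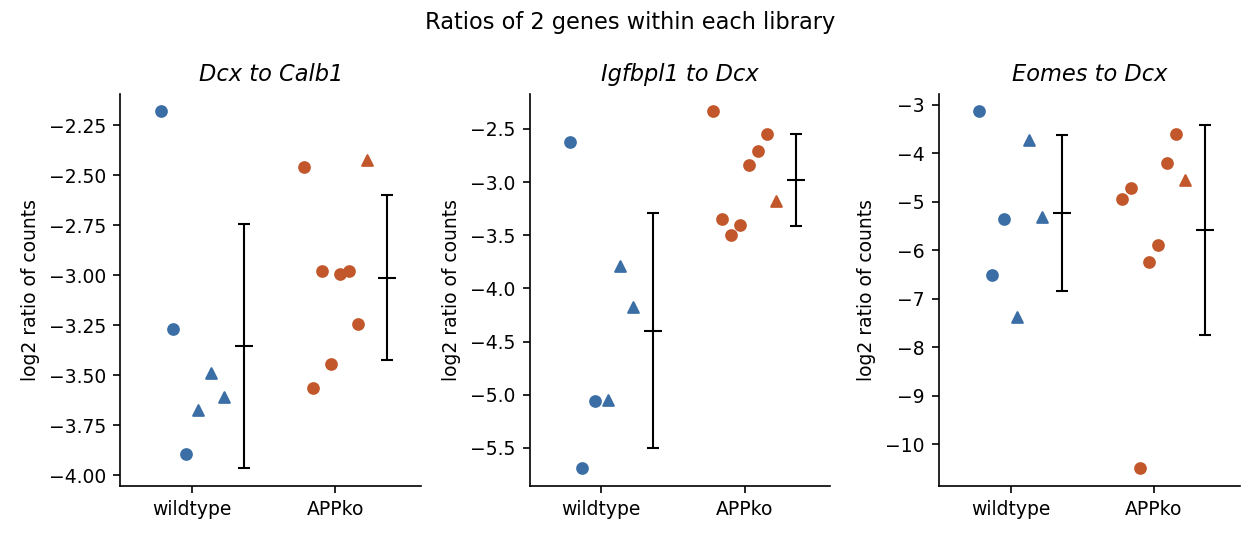
Log2 ratios of the counts of 2 genes in each library (0.5 added to each count), with the mean and SD of wildtype (blue, n = 6) and APPko (orange, n = 8). Circles and triangles are headers ending in f and m. For Igfbpl1 to Dcx 5 wildtype libraries lie below all 8 APPko libraries, and for Eomes to Dcx APPko library 3 stands alone at -10.5.

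The members did not move as 1 block from library to library. With genotype means removed, 25 of 36 pairs had a positive Pearson r over the 14 libraries and 2 pairs passed a permutation test adjusted over the 36. Igfbpl1 and Neurod2 varied together (r = 0.85, permutation p = 0.0002, adjusted p = 0.0072, and Spearman rho = 0.78, permutation p = 0.0016, adjusted p = 0.029). Their r was 0.67 without wildtype libraries 1 and 2, the farthest from the median of Neurod2. It was 0.77 without wildtype libraries 2 and 3 (adjusted p = 0.074) and 0.89 over the 10 libraries with header f (adjusted p = 0.028). Of 17345 genes, 0.513% correlated with Neurod2 at least as strongly as Igfbpl1 did.

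Dcx ran against Neurod2 (r = -0.74, permutation p = 0.0026, adjusted p = 0.047), although the rank correlation did not pass (rho = -0.66, permutation p = 0.013, adjusted p = 0.12). The permutations moved centred values across both genotypes and made no allowance for the means removed. An adjusted p this close to the threshold is therefore approximate and may be too small. The r was -0.55 without wildtype libraries 1 and 4, -0.72 without wildtype libraries 2 and 3 (adjusted p = 0.081) and -0.73 over the libraries with header f (adjusted p = 0.12). Of the 17345 genes, 3.41% ran against Neurod2 at least as far. Igfbpl1 and Eomes, the neuroblast and the progenitor gene, had r = 0.70 (permutation p = 0.0055, adjusted p = 0.058) and rho = 0.78 (permutation p = 0.0016, adjusted p = 0.029). A Pearson r at least as high was found with Igfbpl1 in 3.66% of the 17345 genes, and with Eomes in 0.317%. The stem cell genes Hopx and Nes had r = 0.62 (permutation p = 0.018, adjusted p = 0.12), and 0.24 without wildtype libraries 2 and 3. With each library's GC trend removed, the r of Igfbpl1 with Neurod2 was 0.81 (adjusted p = 0.02) and that of Dcx with Neurod2 was -0.69 (adjusted p = 0.076). Neurod2 and Igfbpl1 have 58.7% and 55.7% GC and Dcx has 40.6%.

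**Figure D4:**
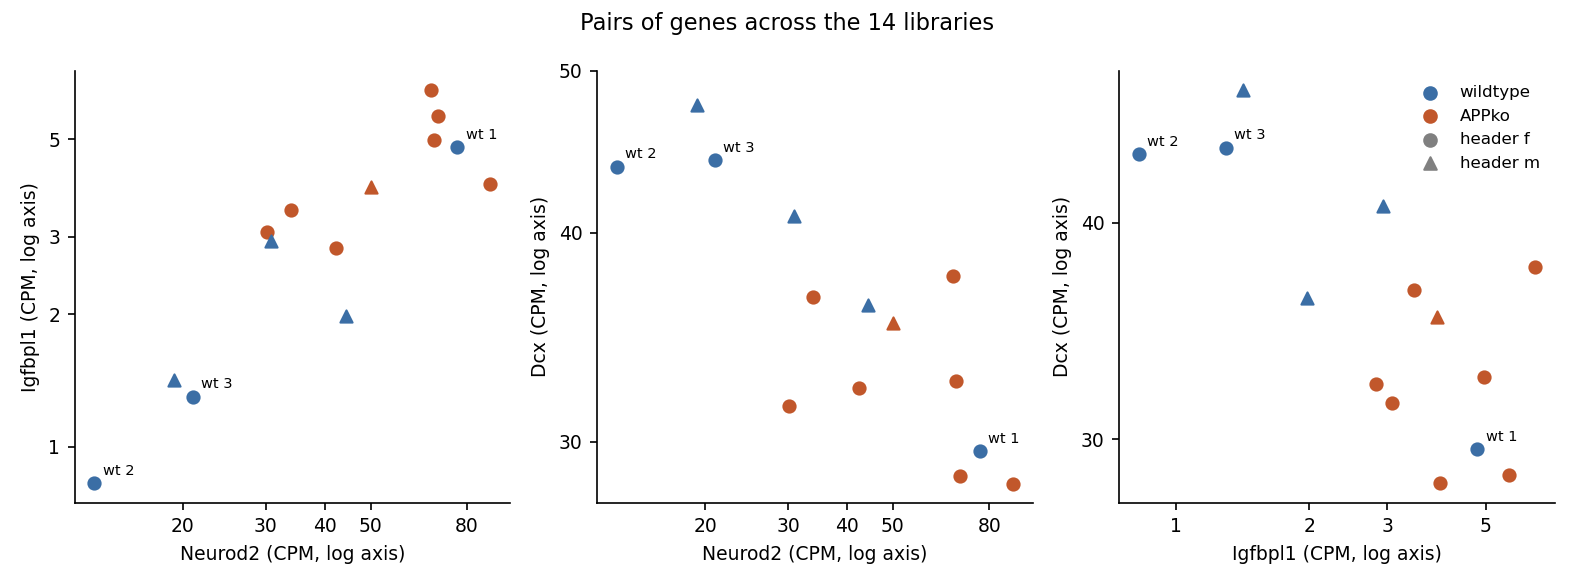
Levels of 3 pairs of genes in the 14 libraries, in CPM on log axes, for wildtype (blue) and APPko (orange), with circles for header f and triangles for header m. Wildtype libraries 1, 2 and 3 are named. The 5 libraries highest in Neurod2 are also the 5 highest in Igfbpl1, wildtype library 1 among them, and their Dcx runs from 28.3 to 37.7 CPM.

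The genes whose pattern was most like each member, by Pearson r over the 14 libraries with genotype means removed, among 17345 genes of at least 1 CPM, are given as a description. Dcx varied most like Ccdc39 (r = 0.90) and Itga8 (0.90), and Neurod1 like Ccpg1 (0.84) and Fbxl7 (0.84). Neurod2 was followed by Tspan5 (0.97), a tetraspanin, and Nmt1 (0.96), an N-myristoyltransferase. Igfbpl1 was followed by the formin Inf2 (0.92) and by Ttll11 (0.91), which modifies tubulin. Hopx came closest to the ribosomal protein gene Rplp2 (0.96) and to the kinase Gsk3a (0.96). Nes came closest to Rrbp1 (0.94) and Gmip (0.93), Sox11 to Zfp809 (0.93) and Btbd8 (0.91), Sox4 to the polarity gene Pard3 (0.88) and Gm44386 (0.87), and Eomes to Gm4342 (0.87) and Gm17322 (0.84). No member was among the 2 nearest genes of another. The 14 libraries share depth, scaling and GC slope in these comparisons, and the slope ran from -0.33 to 0.08 log2 units per 10 GC points in wildtype and from -0.06 to 0.22 in APPko.

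Around the 9 genes, 6 lists of other genes of the lineage were read, 141 tested genes in all, of which 11 passed. Each count is to be read against the shares of all genes called, 0.944% higher and 1.41% lower. The lists were chosen with earlier results of these data known, so a count above those shares is no independent evidence. Among 20 quiescent stem cell and astroglial genes, 0 rose and 1 fell (median log2 fold change -0.19): Notch2, a receptor of the stem cell niche, at 123.0 ± 40.8 and 73.3 ± 7.83 CPM (adjusted p = 0.031). Of 18 activated progenitor genes 0 passed in either direction with edgeR or limma voom, 3 had an unadjusted p under 0.05, and DESeq2 called 2 higher (median 0.10). The cyclin Ccnd1 (adjusted p = 0.069) and its kinase Cdk4 (adjusted p = 0.08) had the smallest p.

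Of 18 cell division genes 0 rose and 2 fell, with a median of -0.33 and 16 of 18 fitted values negative. Top2a, the topoisomerase of dividing cells, had 10.4, 16.9 and 20.5 CPM as lowest, median and highest in wildtype and 6.31, 9.49 and 13.8 in APPko (log2 fold change -0.78, SE 0.19, adjusted p = 0.041). Mki67, the proliferation marker Ki-67, had 9.35, 13.4 and 17.9 CPM in wildtype and 6.29, 8.67 and 12.3 in APPko (-0.61, SE 0.15, adjusted p = 0.044). For both genes, 6 of 8 APPko libraries lay below every wildtype library. Dividing glia and progenitors both carry these messages. Of 9 microglial genes 2 were called higher (Tyrobp and C1qb), neither of them without wildtype libraries 2 and 3 (adjusted p = 0.11 and 0.24). The list had a median log2 fold change of 0.08, with 6 positive and 3 negative, and a summed level of 406 to 792 CPM in wildtype and 568 to 1000 in APPko, with no marker at 0 in all libraries. The part of either in the other was not tested.

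Of 30 neuroblast and immature neuron genes 1 rose and 2 fell, with a median of -0.02. The 2 polysialyltransferases, which build polysialic acid on the adhesion molecule NCAM of immature neurons, went opposite ways. St8sia2 rose from 1.88 ± 0.627 to 3.62 ± 0.797 CPM (log2 fold change 0.94, SE 0.22, adjusted p = 0.036), and its groups, 0.867 to 2.64 and 2.81 to 5.29, did not overlap. St8sia4 fell from 33.5 ± 8.15 to 19.6 ± 4.74 CPM (-0.77, SE 0.17, adjusted p = 0.029). Elavl4, a neuronal RNA-binding protein, fell from 72.2 ± 4.79 to 56.3 ± 6.38 CPM (-0.36, adjusted p = 0.048).

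Of 18 granule cell commitment and maturity genes 0 rose and 4 fell (median -0.25): C1ql3, a secreted synaptic organizer (-0.78, adjusted p = 0.047), the neuropeptide Y receptor Npy1r (-0.74, adjusted p = 0.031), the netrin relative Ntng1 (-0.54, adjusted p = 0.05 as rounded) and the transcription factor Rfx3 (-0.52, adjusted p = 0.031). Of 37 tested signals and inhibitors of neurogenesis 1 rose and 0 fell (median -0.05). The gene that rose was Dclk2, a doublecortin-like kinase and relative of Dcx, from 23.4 ± 3.56 to 34.5 ± 3.19 CPM (0.56, SE 0.11, adjusted p = 0.023), with groups of 17.4 to 27.5 and 28.4 to 38.2 that did not overlap. Bmp4, Dkk1 and Gli1 were below the filter.

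All 11 kept their sign in each of the 28 alternative fits. Limma voom called 1 gene lower in each of the stem cell, cell division and neuroblast lists. It called 3 lower in the granule cell list and 1 higher in the signals list. DESeq2 called 3, 3, 4 and 5 lower in the stem cell, cell division, neuroblast and granule cell lists. It called 1 higher in the neuroblast list and 3 higher in the signals list. None of the 11 passed without wildtype libraries 2 and 3, where over all genes 35 were called in place of 521. Dclk2 passed in 12 of the 14 fits that each left out 1 library, all but those without wildtype library 3 or APPko library 5, and the others passed in 1 to 7 of 14. Each of those 10 failed without wildtype library 2 or 3 and without APPko library 1, 2, 5, 6 or 7. Markers of cells that could reach the excised tissue gave 0 calls in either direction for oligodendrocytes and their precursors, vessels, fibroblasts, Cajal-Retzius cells, interneurons, mossy and CA field cells and ependyma by edgeR, where at an unadjusted p under 0.05 there were 0 to 4 per list and DESeq2 called 0 to 2. Beside the vessel list described with Nes, interneuron genes leaned one way, with 10 of 12 fitted values negative (median -0.17) and 2 called lower by DESeq2. 1 astrocyte gene was higher by edgeR (Atp1b2), but not without wildtype libraries 2 and 3 (edgeR adjusted p = 0.072). It passed in 8 of the 14 fits that each left out 1 library. DESeq2 called 1 astrocyte gene higher and 1 lower. Mossy and CA field markers summed to 629 to 938 CPM in wildtype and 668 to 963 in APPko.

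**Figure D5:**
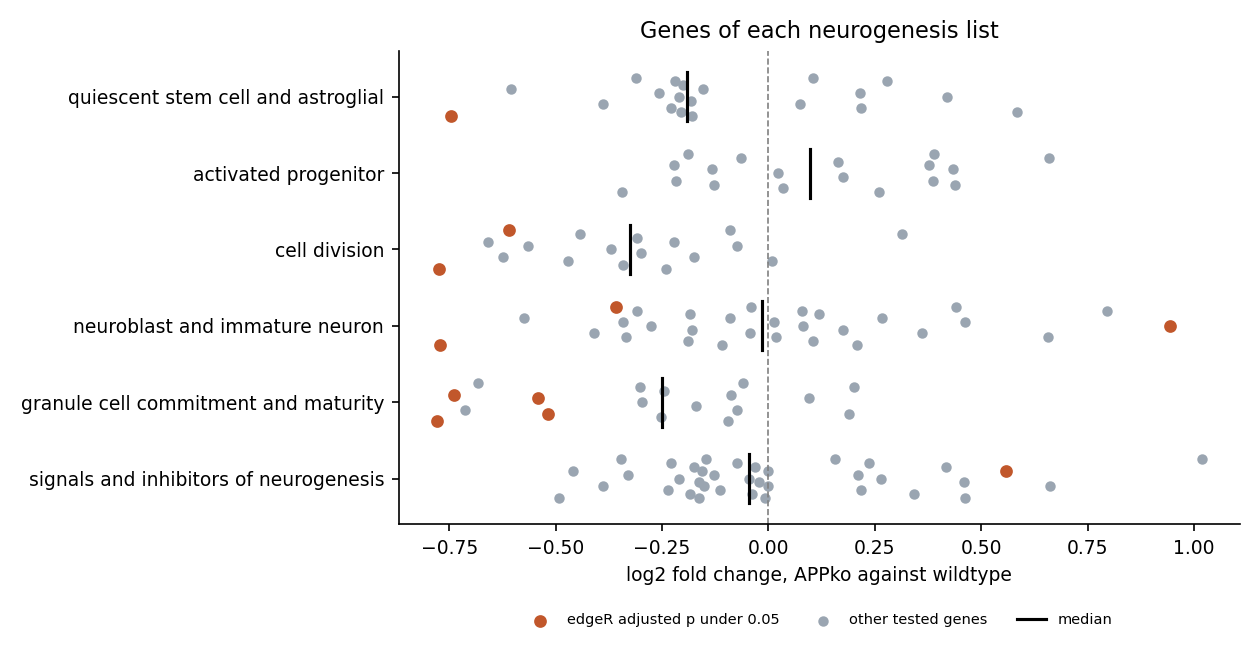
Fitted log2 fold change, APPko against wildtype, of each tested gene of the 6 lists, with the median of each list as a black bar. Orange points passed edgeR's test at an adjusted p of 0.05, and the vertical position within a list has no meaning. The cell division and granule cell lists lie mostly left of 0 (16 of 18 and 15 of 18 values negative). So do, less strongly, the stem cell list (13 of 20) and the signals list (25 of 37).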

How the data were processed

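Each library has 1 deposited table of raw read counts by gene symbol. The submitters' processing notes name cutadapt 3.5, STAR 2.7.8a, featureCounts 2.0.1 and the build GRCm38. Per the labels' protocols, cDNA was amplified for 12 cycles, 10 ng entered library preparation (10 cycles) and reads were 151 bp pairs. How the counting treated strand and mates: not given in the sources used here. Counts of 2 were 4.34 to 6.83 times as frequent as counts of 1, so mates appear to be counted singly. Reads are not independent molecules.

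Positions and exon lengths came from the deposited gene annotation, GC content from the longest GENCODE transcript of each gene. edgeR 4.0.16 (R 4.3.3) fitted quasi-likelihood models to the 22150 genes kept by its filter, TMM-scaled, without covariates, adjusted by Benjamini-Hochberg at 0.05. CPM are TMM-scaled. Correlations used log2 CPM (prior count 2), centred within genotype, and 100000 permutations of the centred values over all libraries. DESeq2 1.42.0 and limma 3.58.1 were alternatives.

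Named genes were all 9 members, the genes of each list past the threshold or otherwise the 2 of smallest p, the 2 nearest genes of each member, and exon neighbours. Members and lists were chosen with earlier results of these data known.

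Whether replicate numbers pair the libraries is not stated in the labels, and the main fit did not take them as pairs.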

Additional observations from a re-analysis of the deposited data

Results flagged for a closer look

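Among 24 groups of values examined (9 genes and 3 ratios in each genotype), 2 held a library whose gap to its neighbour was large for the range of its group. Chance gives such a gap in about 1 group in 20. The log2 ratio of Dcx to Calb1 was -2.18 in wildtype library 1, while the other 5 wildtype libraries lay between -3.89 and -3.27. That library had 29.6 CPM of Dcx and 134 CPM of Calb1, the lowest wildtype value of each. The log2 ratio of Eomes to Dcx was -10.5 in APPko library 3, while the other 7 APPko libraries lay between -6.25 and -3.60. This library held 0 counts of Eomes, so its ratio is set by the 0.5 added to each count.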

How the results depend on the processing

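28 alternative fits were run for each member (other scalings, filters and tools, header suffix, GC trend, replicate block, and leaving out libraries). No member was called lower in any of them. Members called higher numbered 1 with DESeq2 and 0 to 2 over the fits without 1 library, the 2 being Igfbpl1 and Neurod2 without wildtype library 1. The sign of Sox11 turned with total counts alone (0.056), limma voom (0.044), without wildtype libraries 2 and 3 (0.081) and with the GC trend removed (0.009), and its fits without 1 library ran from -0.108 to 0.063. Those of Eomes ran from -0.70 to 0.093. Nes turned to -0.092 without wildtype libraries 2 and 3, to -0.078 with the GC trend removed, and to -0.035 with the replicate block and GC trend together. The signs of Dcx, Neurod1, Neurod2, Sox4, Igfbpl1 and Hopx held in all 28. Without 1 library the Dcx to Calb1 difference ran from 0.233 to 0.576, Igfbpl1 to Dcx from 1.16 to 1.77 and Eomes to Dcx from -0.773 to 0.356. Igfbpl1 to Dcx missed the threshold over f libraries (1.5) and without wildtype libraries 2 and 3 (0.928). It also missed with the replicate block (1.38), where the sign-flip p was already the smallest that 64 arrangements allow. Member pairs past the threshold numbered 0 without wildtype libraries 2 and 3, 1 over f libraries and 1 with the GC trend removed, the last 2 added after the data were seen, as was the GC-corrected ratio (1.07 for Igfbpl1 to Dcx). Same-numbered libraries of the 2 genotypes had correlations of -0.35 to 0.30. For wildtype libraries 1 and 4 the APPko library of the same number was the closest, and for 2, 3, 5 and 6 another was. The labels name no pairs, and the main fit took none. With the replicate block 21 genes were called in place of 521, and no member. Calls over all genes ran from 17 with the block and GC trend removed to 3672 over f libraries. The causes were not tested. Eomes had the fewest counts of the 9 genes, 0 to 85.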
